A study of Mus musculus with 6 samples.

Results

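Intestinal crypts of C57BL/6 mice that were irradiated on the abdomen and given MPLA were compared with crypts of mice that were not irradiated. The comparison takes the 2 libraries titled AIR_MPLA (replicates 1 and 3) and the 2 titled Control (replicates 2 and 3), chosen by title, 4 of the 6 libraries of the series. It covers all 10415 of 21878 genes that reached 1 FPKM in at least 2 of the 6 libraries. AIR_MPLA and AIR crypts were taken 3 days after irradiation; AIR mice (replicates 1 and 3) had the irradiation without MPLA, and Control mice had neither. MPLA is a lipid A derivative that activates TLR4, and its use is given by the sample titles and the design text. The labels state neither its dose and route nor the radiation dose, sex or age. All groups are of 1 strain. Nothing says that replicates are separate mice, so p-values reflect sample spread alone, possibly technical. The question is which crypt transcripts still differ from unirradiated crypts when MPLA has been given, with the values of AIR crypts set beside them.

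Intestinal crypts hold the stem cells that renew the epithelium, the Paneth cells beside them and their dividing progeny, and lymphocytes lie between the epithelial cells. Radiation kills cycling crypt cells, and surviving cells pass through a regenerative state with fetal-like transcripts before the stem cells return. TLR4 senses bacterial lipid A and signals to NF-kB and to type I interferon genes.

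The values are FPKM, fragments scaled to transcript length and library size, deposited by the authors both sample by sample and as a joint series table. Libraries held 381669 to 492247 FPKM in total per library and 9842 to 10179 genes at 1 FPKM or more; the number of reads is unknown. Control replicate 2 stands apart, because its 2 deposited versions differ (14 of 21878 values are equal and above 0). The other 5 libraries are the same in both. Its Pearson correlation with Control replicate 3, over genes and hence not over independent points, was 0.972 for the own file and 0.997 for the table. Defensin genes made up 3.05% and 2.19% of FPKM in AIR_MPLA, 2.04% and 2.15% in AIR, and 5.02% and 10.8% in Control (13.7% in the table's version of replicate 2). The own file is used here, and a value called the table's is with the other version. Epithelial identity was checked with 12 general epithelial markers such as Epcam, which summed to 6795 and 7561 FPKM in AIR_MPLA, 5412 and 5227 FPKM in AIR, and 5659 and 6366 FPKM in Control. None of the 12 passed between AIR_MPLA and Control. Of the 12, 6 were higher and 1 lower in AIR_MPLA than in AIR, where 19.5% and 9.90% of all tested genes were (median log2 fold 0.63, against 0.15 for all tested genes). In AIR 1 was higher and 5 lower than in Control, where 8.05% and 18.7% of all tested genes were.

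Of the 10415 genes tested, 154 (1.48%) differed between AIR_MPLA and Control, 67 of them higher (0.643%) and 87 lower (0.835%), at a Benjamini-Hochberg adjusted p under 0.05 in limma on log2(FPKM + 1). Before adjustment 1674 genes were under 0.05. The median log2 fold of all tested genes was -0.03. Totals without defensin and haemoglobin genes gave 26 higher and 61 lower, 29.9% higher against 43.5%, and put the median of all genes at -0.14. The table's Control replicate 2 gave 576 higher (5.54%) and 532 lower (5.11%), and 149 of the 154 were called in the same direction with it. By the same fit 838 genes (8.05%) were higher and 1948 (18.7%) lower in AIR than in Control, and 2029 (19.5%) were higher and 1031 (9.90%) lower in AIR_MPLA than in AIR. The comparisons of both irradiated groups share the Control libraries, so their values are set side by side and not tested against each other. The number of calls moved widely when single libraries were left out. For all 67 rises both AIR_MPLA libraries lay above both Control libraries, and for all 87 falls below. Leaving out 1 library therefore could not turn the direction of any of the 154. Folds are on log2(FPKM + 1), which understates the change of genes of a few FPKM.

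**Figure D1:**
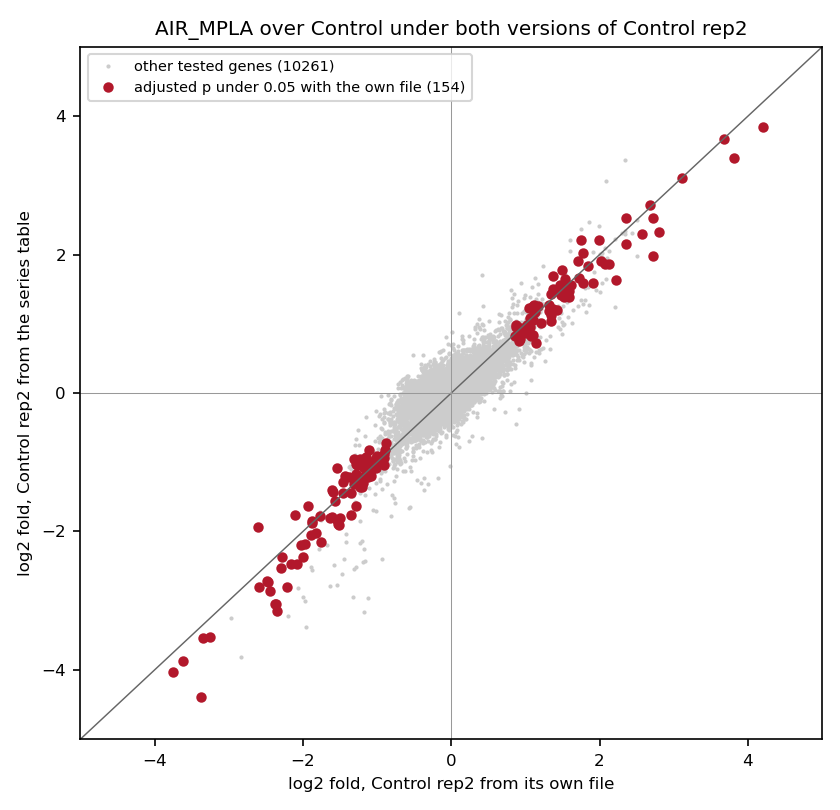
Log2 fold of AIR_MPLA over Control for each tested gene, with Control replicate 2 from its own file (x axis) and from the series table (y axis), both on log2(FPKM + 1); red points are the 154 genes called with the own file and the line marks equal values. The called genes lie on the same side of 0 on both axes, in 2 clouds that follow the line.

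Genes of MHC class II antigen presentation, which display extracellular peptides to CD4 T cells, held 5 of the 8 largest falls that the naming rule took. Of 11 tested members 6 were lower in AIR_MPLA and none higher: the chains H2-Aa, H2-Ab1 and H2-Eb1, the invariant chain Cd74, and the peptide loading subunits H2-DMa and H2-DMb1. The median of the list was -1.61, and both AIR_MPLA libraries lay below both Control libraries for 7 members, against 24.5% of all genes. Because the members moved together, promoters are shown for the 3 of these genes in which a match to the letters below was found. They are the 250 bases before the RefSeq start, on GRCm38.p6, 5′ to 3′ on the strand of the gene. Capitals mark CTGATTGG, a form of the Y box of class II promoters, in the first 2, and its core ATTGG in the third, which lies inside the longer form in the others.
H2-Aa (chr17:34287824-34288073, minus strand): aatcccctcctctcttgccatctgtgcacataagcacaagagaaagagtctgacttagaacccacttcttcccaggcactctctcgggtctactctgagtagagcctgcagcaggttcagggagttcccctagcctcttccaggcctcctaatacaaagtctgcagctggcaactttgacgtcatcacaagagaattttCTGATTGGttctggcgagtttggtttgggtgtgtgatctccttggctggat
H2-Eb1 (chr17:34305617-34305866, plus strand): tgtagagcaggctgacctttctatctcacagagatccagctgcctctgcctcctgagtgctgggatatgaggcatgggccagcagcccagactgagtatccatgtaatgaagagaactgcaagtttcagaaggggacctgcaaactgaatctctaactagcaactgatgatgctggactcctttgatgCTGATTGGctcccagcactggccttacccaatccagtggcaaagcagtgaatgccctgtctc
H2-DMb1 (chr17:34152941-34153190, plus strand): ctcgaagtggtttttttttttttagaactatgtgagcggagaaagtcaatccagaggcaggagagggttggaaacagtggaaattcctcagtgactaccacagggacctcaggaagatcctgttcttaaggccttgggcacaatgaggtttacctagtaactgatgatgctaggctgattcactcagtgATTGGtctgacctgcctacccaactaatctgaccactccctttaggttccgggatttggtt

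On either strand, CTGATTGG was in 2 of the 8 tested class II members with a promoter in the table and in 4.07% of all 27025 promoters of that length, and ATTGG was in 5 of the 8 and in 34.5% of all. The 5 with ATTGG were H2-Aa, H2-Eb1, H2-DMb1, Rfx5 and Rfxank, of which Rfx5 and Rfxank were not called between AIR_MPLA and Control. A match describes letters only.

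Cd74 (gene ID 16149, chromosome 18, 60803849 to 60812652) was at 11.7 and 10.8 in AIR_MPLA, 18.9 and 15.4 in AIR and 121 and 222 FPKM in Control. Every irradiated library lay far below both Control libraries, and the group means were 11.2 ± 0.611 FPKM in AIR_MPLA and 171 ± 71 FPKM in Control (SD, n = 2 each; log2 fold -3.75, SE 0.28, adjusted p = 0.00987). H2-Eb1 (gene ID 14969, chromosome 17, 34305867 to 34316674), a beta chain, was at 2.19 and 2.35 in AIR_MPLA, 4.32 and 4.61 in AIR and 24.1 and 42.8 FPKM in Control (log2 fold -3.34, SE 0.26, adjusted p = 0.00987). H2-Ab1 was at 4.37 and 6.58 in AIR_MPLA, 18.7 and 11.5 in AIR and 57.3 and 104 FPKM in Control (log2 fold -3.61, SE 0.34, adjusted p = 0.0154). H2-Aa was at 2.67 and 2.63 in AIR_MPLA, 11.4 and 5.69 in AIR and 22.8 and 50.4 FPKM in Control (log2 fold -3.26, SE 0.40, adjusted p = 0.0204). For these 3 chains AIR_MPLA was the lowest group. It was also below AIR for H2-Ab1 (log2 fold -1.3, adjusted p = 0.0331) and H2-Aa (log2 fold -1.32, adjusted p = 0.0485). For H2-Eb1 the difference from AIR missed the threshold (log2 fold -0.74, adjusted p = 0.0658). Of the 11 tested class II members 2 were lower and 2 higher in AIR_MPLA than in AIR, where 9.90% and 19.5% of all genes were. H2-DMb1, which acts in exchanging peptides on class II molecules, was at 0.872 and 1.02 in AIR_MPLA and 7.32 and 13 FPKM in Control (log2 fold -2.48, adjusted p = 0.0157). Its partner H2-DMa was at 0.66 and 0.455 in AIR_MPLA and 3.07 and 4.5 FPKM in Control (log2 fold -1.61, adjusted p = 0.0204). The members that did not pass do other things: Rfx5, Rfxap and Rfxank, which bind class II promoters, had log2 folds of -0.18, -0.10 and 0.079, and the lysosomal Ctss and Ifi30 0.19 and 0.27. Ciita, the coactivator that sets class II transcription, was under the filter, at 0.0989 and 0.118 in AIR_MPLA, 0.123 and 0.0919 in AIR and 0.89 and 1.33 FPKM in Control, so all irradiated libraries were below both Control libraries.

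Class II calls held with the table's Control replicate 2 and without either Control library (6 lower each); 3 were left without AIR_MPLA replicate 1 or AIR replicate 3 and 4 without AIR_MPLA replicate 3. Cd74, H2-Ab1 and H2-Eb1 kept their call without any 1 of the 6 libraries. In whole crypt samples, fewer cells of a type and less RNA per cell cannot be told apart. Markers of macrophages and dendritic cells summed to 43.5 and 49.1 FPKM in AIR_MPLA and 45.5 and 45.6 FPKM in Control, with 10 of 18 under 1 FPKM in all libraries. The list includes Lyz2, also a marker in the Paneth list, and Ctss of the class II list. The 1 of 7 tested that was lower was Tyrobp, a leukocyte signalling adaptor (1.01 and 1.28 in AIR_MPLA and 3.4 and 4.71 FPKM in Control; log2 fold -1.23, adjusted p = 0.0357). With the table's Control replicate 2, 3 of the 7 were lower and none higher (median log2 fold -0.26), against 5.11% and 5.54% of all genes. In AIR 3 were lower and 1 higher than in Control, where 18.7% and 8.05% of all genes were. Members under the filter moved both ways. The dendritic cell integrin Itgax was at 0.0375 and 0.0857 in AIR_MPLA and 0.226 and 0.546 FPKM in Control. The macrophage marker Cd68 was at 0.728 and 0.388 in AIR_MPLA and 0.361 and 0.268 FPKM in Control, and Adgre1 at 0.0806 and 0.0616 in AIR_MPLA and 0.0131 and 0 FPKM in Control. Of the 18, 2 were at 0 in both AIR_MPLA libraries and 2 in both Control libraries. Markers of B and plasma cells summed to 1.29 and 1.39 FPKM in AIR_MPLA and 3.61 and 10.1 FPKM in Control, with 5 of 9 at 0 in both AIR_MPLA libraries. The part of either cell type in the class II falls was not tested.

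**Figure D2:**
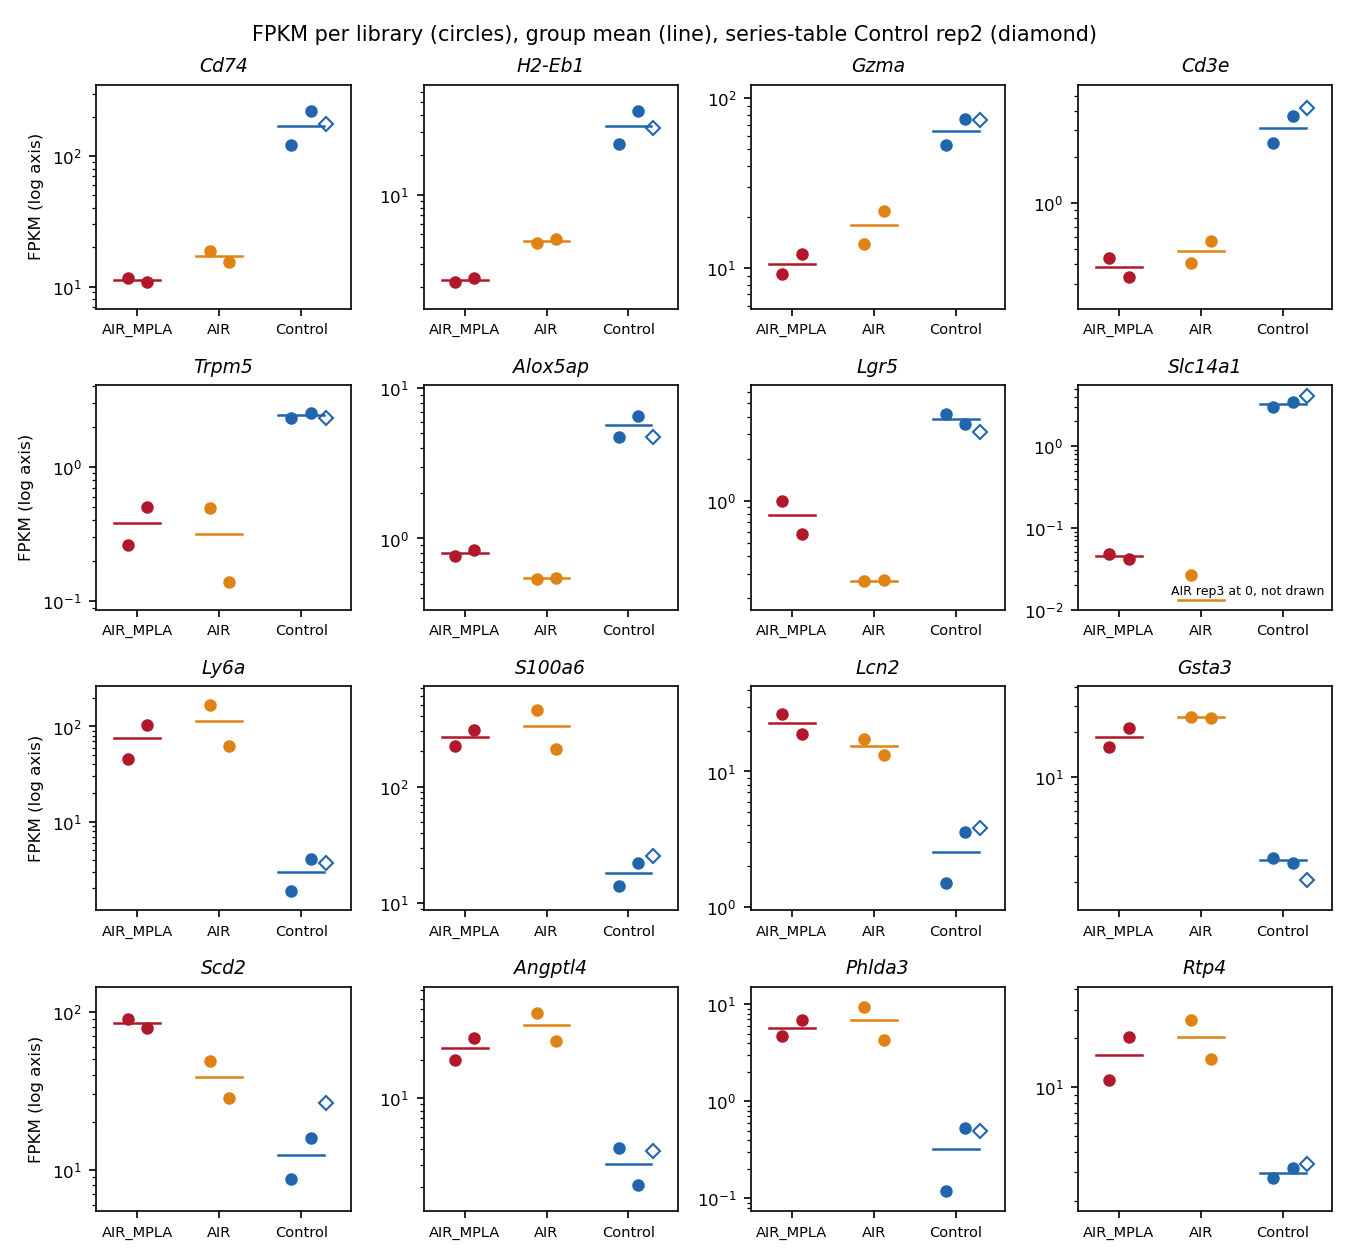
FPKM on log axes for 16 genes, drawn with their values known, in AIR_MPLA, AIR and Control libraries (circles), with the mean of each group (line) and the series-table value of Control replicate 2 (diamond). In the first 8 panels both irradiated groups lie under Control and in the last 8 above it; Slc14a1 is at 0 in AIR replicate 3, which a log axis cannot show.

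Markers of T cells and intraepithelial lymphocytes, the lymphocytes that patrol the epithelium, were lower in AIR_MPLA in 10 of 11 tested members, with a list median of -1.64. Gzma (gene ID 14938, chromosome 13, 113093824 to 113100981), a granzyme of cytotoxic granules, was at 9.22 and 12 in AIR_MPLA, 13.9 and 21.7 in AIR and 53.3 and 75.3 FPKM in Control (log2 fold -2.48, SE 0.27, adjusted p = 0.0157). Ccl5, a chemokine of activated T cells, was at 8.71 and 13 in AIR_MPLA, 12.4 and 12.5 in AIR and 46.9 and 83.1 FPKM in Control (log2 fold -2.45, SE 0.29, adjusted p = 0.0185). Neither irradiated group overlapped Control for these genes, and AIR lay close to AIR_MPLA. Nkg7, another granule protein, was at 0.892 and 1.59 in AIR_MPLA and 7.03 and 11.1 FPKM in Control (log2 fold -2.16, adjusted p = 0.0176). Of the T cell receptor complex, Cd3g was at 0.443 and 0.888 in AIR_MPLA and 4.0 and 4.29 FPKM in Control (log2 fold -1.64, adjusted p = 0.0172). Cd3e was at 0.44 and 0.329 in AIR_MPLA and 2.45 and 3.71 FPKM in Control (log2 fold -1.54, adjusted p = 0.021). The other 5 that fell were Gzmb, Cd8a, Cd7, Lck and Itgae, the integrin chain that holds these lymphocytes to E-cadherin, with log2 folds from -2.28 for Gzmb to -1.1 for Lck. Klrd1, a receptor of natural killer cells, missed the threshold, at 0.184 and 0.539 in AIR_MPLA and 1.64 and 1.52 FPKM in Control (log2 fold -0.94, adjusted p = 0.0586). Over 19 markers in the files the sums were 24.7 and 38.3 FPKM in AIR_MPLA, 41.3 and 52.2 FPKM in AIR, and 152 and 226 FPKM in Control. No member was called between AIR_MPLA and AIR apart from Klrd1 (log2 fold -0.69, adjusted p = 0.031). With the table's Control replicate 2, 11 of 12 tested members were lower, against 5.11% of all genes. Without single libraries the count was 0 without AIR_MPLA replicate 1, 1 without either AIR library and 6 without AIR_MPLA replicate 3.

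Tuft cells are rare chemosensory epithelial cells that make leukotrienes and interleukins against parasites. In AIR_MPLA 8 of 15 tested tuft markers were lower and none higher, and the list median was -1.01. Of the 15, 14 lay below Control in both libraries, against 24.5% of all genes. Alox5ap (gene ID 11690, chromosome 5, 149265004 to 149288153), the partner protein of 5-lipoxygenase in leukotriene synthesis, was at 0.763 and 0.835 in AIR_MPLA, 0.538 and 0.546 in AIR and 4.76 and 6.55 FPKM in Control (log2 fold -1.87, SE 0.18, adjusted p = 0.0154). It was lowest in AIR and highest in Control, and no AIR_MPLA library reached a Control library. Alox5, the lipoxygenase itself, was at 0.122 and 0.136 in AIR_MPLA and 1.38 and 1.35 FPKM in Control (log2 fold -1.07, adjusted p = 0.0249). Trpm5, the cation channel of taste and tuft cell signalling, was at 0.261 and 0.503 in AIR_MPLA and 2.31 and 2.53 FPKM in Control (log2 fold -1.31, adjusted p = 0.0324). The marker kinase Dclk1 was at 0.143 and 0.109 in AIR_MPLA and 1.32 and 1.19 FPKM in Control (log2 fold -1.0, adjusted p = 0.0309). The transcription factor Spib and the adaptors Sh2d6 and Fyb also fell, by 1.35, 1.22 and 1.01 on the log2 scale. Pou2f3, the factor that specifies the lineage, missed the threshold (log2 fold -0.92, adjusted p = 0.0516) and passed with the table's Control replicate 2 (log2 fold -0.76, adjusted p = 0.00683), as did 13 members in all. Between AIR_MPLA and AIR 1 member was called, Plcg2, a phospholipase, at 4.86 and 5.11 FPKM in AIR_MPLA and 1.92 and 1.6 FPKM in AIR (log2 fold 1.12, adjusted p = 0.0153). The count of 8 became 1 without AIR_MPLA replicate 1 and 2 without AIR_MPLA replicate 3 or either AIR library. Of these genes 7 of the 8 averaged under 5 FPKM in Control, and none of the 8 passed a filter of 5 FPKM with a call.

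Stem cell markers of the crypt base were lower in AIR_MPLA for 2 of 23 tested members, Slc14a1 and Lgr5, with a list median of -0.77. Of the 23 markers of these stem cells 21 lay below both Control libraries, against 24.5% of all genes. Lgr5 (gene ID 14160, chromosome 10, 115450314 to 115587780), a receptor for R-spondin and their usual marker, was at 1.01 and 0.577 in AIR_MPLA, 0.266 and 0.269 in AIR and 4.22 and 3.56 FPKM in Control (log2 fold -1.46, SE 0.18, adjusted p = 0.0204). AIR_MPLA lay between the other groups without overlap, and its difference from AIR missed the threshold (log2 fold 0.49, adjusted p = 0.0766). Slc14a1, a urea transporter, was at 0.0481 and 0.0413 in AIR_MPLA, 0.0262 and 0 in AIR and 3.02 and 3.47 FPKM in Control (log2 fold -2.02, SE 0.15, adjusted p = 0.00987), and its call held without any 1 library. Olfm4, a secreted glycoprotein of stem cells, was at 303 and 199.7 in AIR_MPLA, 91 and 245 in AIR and 723 and 542 FPKM in Control, and did not pass (log2 fold -1.35, adjusted p = 0.221). The Wnt target Axin2 was at 8.91 and 7.52 in AIR_MPLA, 2.95 and 4.26 in AIR and 13.3 and 16.2 FPKM in Control. It did not pass against Control (log2 fold -0.77, adjusted p = 0.129) and was higher in AIR_MPLA than in AIR (log2 fold 1.01, adjusted p = 0.019). In AIR 21 of the 23 markers were lower than in Control, against 18.7% of all genes, with a median of -1.17. Against AIR, 11 of the 23 were higher in AIR_MPLA, where 19.5% of all genes and 6 of the 12 general epithelial markers were; the part of epithelial content in this count was not tested. The table's Control replicate 2 gave 13 stem cell markers lower in AIR_MPLA, against 5.11% of all genes, among them Axin2 (log2 fold -0.96, adjusted p = 0.01) and Sox9 (log2 fold -0.68, adjusted p = 0.0294). The count was 6 without Control replicate 3 and 1 without any 1 of the AIR_MPLA or AIR libraries. Among 22 tested Wnt receptors, feedback genes and targets Lgr5 was the 1 call, with 8 lower and 1 higher by the table.

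Transcripts of fetal-like and revival epithelium held 2 of the 8 largest rises that the naming rule took. Ly6a and S100a6 were higher among 18 tested, none was lower, the list median was 1.28, and 14 of the 18 lay above both Control libraries, against 25.0% of all genes. Ly6a (gene ID 110454, chromosome 15, 74994877 to 74998031), whose product Sca-1 marks repairing epithelium, was at 45.9 and 104 in AIR_MPLA, 166 and 62.3 in AIR and 1.89 and 4.03 FPKM in Control (log2 fold 4.2, SE 0.55, adjusted p = 0.0228). S100a6, a calcium-binding protein, was at 222 and 306 in AIR_MPLA, 454 and 210.2 in AIR and 13.9 and 22.3 FPKM in Control (log2 fold 3.81, SE 0.39, adjusted p = 0.0157). For both genes each irradiated library lay far above both Control libraries, and the irradiated groups overlapped each other. Clu, which marks revival stem cells, was at 4.12 and 5.88 in AIR_MPLA, 8.58 and 2.01 in AIR and 0.066 and 0.12 FPKM in Control, and did not pass (log2 fold 2.44, adjusted p = 0.0677). In AIR_MPLA 2 of the 18 were lower than in AIR and none higher, and 9.90% of all genes were lower. Nt5e, an ectoenzyme that makes adenosine, was at 3.5 and 9.46 in AIR_MPLA, 100.2 and 32.1 in AIR and 1.97 and 1.97 FPKM in Control (AIR_MPLA over AIR log2 fold -3.08, adjusted p = 0.0176). Anxa10, an annexin, was at 4.12 and 3.73 in AIR_MPLA, 23.2 and 6.99 in AIR and 0.0424 and 0.084 FPKM in Control (AIR_MPLA over AIR log2 fold -1.5, adjusted p = 0.0464). In AIR 11 members were higher than in Control, against 8.05% of all genes, with a median of 2.26. The spread between the AIR_MPLA libraries was wide for Ly6a, whose call was lost without AIR_MPLA replicate 3 or either Control library. The count of 2 became 0 without Control replicate 2, 1 without AIR_MPLA replicate 3 and 4 without either AIR library.

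**Figure D3:**
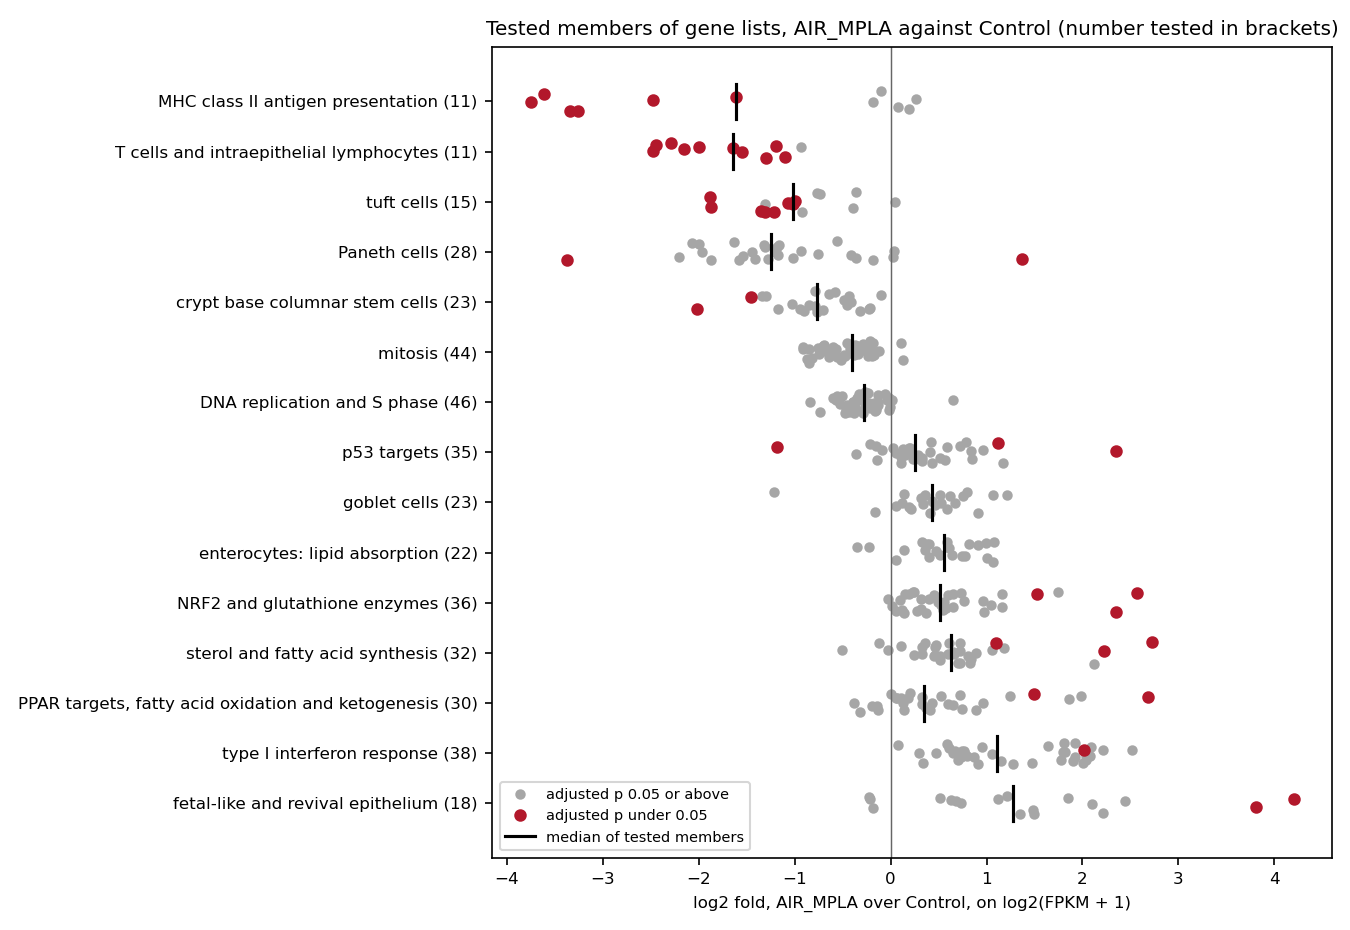
Log2 fold of AIR_MPLA over Control, on log2(FPKM + 1), for each tested member of 15 gene lists drawn with their values known; red points passed an adjusted p of 0.05, grey points did not, and the bar is the median of the tested members. Calls gather in the class II, lymphocyte and tuft lists on the left, while the interferon and fetal-like lists have high medians, 1.10 and 1.28, with 1 and 2 calls.

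Paneth cells release lysozyme and alpha-defensins at the crypt base. Of 28 tested markers 1 was lower and 1 higher, with a median of -1.24. The lower one was an alpha-defensin gene named Gm15292 in the files, at 14 and 10.4 in AIR_MPLA, 6.97 and 10.1 in AIR and 82.5 and 219 FPKM in Control (log2 fold -3.37, SE 0.43, adjusted p = 0.021). The higher one, Guca2b, encodes uroguanylin, a gut peptide that other epithelial cells also make. It was at 1029 and 1187 in AIR_MPLA, 711 and 754 in AIR and 387 and 470.0 FPKM in Control (log2 fold 1.37, SE 0.20, adjusted p = 0.0324). Lyz1, the Paneth lysozyme, was at 2575 and 1919 in AIR_MPLA, 1341 and 1556 in AIR and 2890.5 and 9079 FPKM in Control (log2 fold -1.2, adjusted p = 0.306). AIR_MPLA was below both Control libraries, which lay further from each other than AIR_MPLA replicate 1 did from Control replicate 2. The table gave Control replicate 2 a Lyz1 value of 10644 FPKM, near replicate 3, and with it Lyz1 passed (log2 fold -2.14, adjusted p = 0.00108), as did 23 of the 28 markers on the lower side. Leaving Control replicate 2 out gave 19 lower and leaving replicate 3 out gave 7; without any 1 of the other libraries neither Paneth call was left. Alpha-defensin genes are near-identical copies, so the share of reads given to each is uncertain.

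Detoxifying and glutathione enzymes under the factor NRF2 were higher in AIR_MPLA for 3 of 36 tested members and lower for none, with a median of 0.51. Of the 36, 25 lay above both Control libraries and none below, against 25.0% and 24.5% of all genes. Gsta3 (gene ID 14859, chromosome 1, 21240565 to 21265575), a glutathione transferase, was at 16 and 21.2 in AIR_MPLA, 25.4 and 24.9 in AIR and 2.93 and 2.69 FPKM in Control (log2 fold 2.35, SE 0.17, adjusted p = 0.00987). Its call held without any 1 library. Gsta2, a close paralog with which it may share reads, was at 7.5 and 8.68 in AIR_MPLA, 9.43 and 8.32 in AIR and 2.08 and 2.21 FPKM in Control (log2 fold 1.53, SE 0.16, adjusted p = 0.0157). Cbr3, a carbonyl reductase, was at 15.3 and 27.8 in AIR_MPLA, 28.1 and 16.5 in AIR and 2.02 and 3.43 FPKM in Control (log2 fold 2.57, SE 0.36, adjusted p = 0.0274). For these 3 genes AIR overlapped AIR_MPLA or lay above it, with no call between them. Nqo1, the classical NRF2 target, did not pass, at 57.7 and 73.6 in AIR_MPLA and 46.3 and 47.8 FPKM in Control (log2 fold 0.46, adjusted p = 0.262). Against AIR, 12 of the 36 members were higher in AIR_MPLA, where 19.5% of all genes were. Among them Gstm3 was at 227 and 399.6 in AIR_MPLA, 86.7 and 104 in AIR and 238 and 190.4 FPKM in Control (AIR_MPLA over AIR log2 fold 1.65, adjusted p = 0.0167). The table's Control replicate 2 gave 11 members higher than Control, against 5.54% of all genes. Fewer than the 3 calls were left without AIR_MPLA replicate 3.

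Sterol and fatty acid synthesis genes were higher in AIR_MPLA for 3 of 32 tested members and lower for none, with a median of 0.63. Of the 32, 26 lay above both Control libraries and 1 below, against 25.0% and 24.5% of all genes. Scd2 (gene ID 20250, chromosome 19, 44293676 to 44306864), a stearoyl-CoA desaturase, was at 89.6 and 79 in AIR_MPLA, 48.8 and 28.4 in AIR and 8.8 and 16 FPKM in Control (log2 fold 2.72, SE 0.33, adjusted p = 0.0185). Mvd, an enzyme of the mevalonate pathway, was at 30.3 and 29.3 in AIR_MPLA, 14.8 and 14.8 in AIR and 11.9 and 14.9 FPKM in Control (log2 fold 1.1, SE 0.16, adjusted p = 0.0292). AIR_MPLA was the highest group for both genes, above AIR for Scd2 (log2 fold 1.15, adjusted p = 0.0398) and Mvd (log2 fold 0.96, adjusted p = 0.0154). Mvd in AIR did not pass against Control (log2 fold 0.14, adjusted p = 0.513). Fasn, the fatty acid synthase, was at 19.8 and 18.6 in AIR_MPLA, 7.88 and 5.56 in AIR and 12.7 and 11.8 FPKM in Control. Against Control it did not pass (log2 fold 0.61, adjusted p = 0.177), and it was higher than in AIR (log2 fold 1.41, adjusted p = 0.0153). Over the list 18 of 32 members were higher and 1 lower in AIR_MPLA than in AIR, where 19.5% and 9.90% of all genes were. In AIR 6 were higher and 3 lower than in Control, where 8.05% and 18.7% of all genes were. With the table's Control replicate 2 the count of rises over Control was 17, against 5.54% of all genes. Fewer than the 3 calls were left without any 1 of the AIR_MPLA or AIR libraries.

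Fatty acid oxidation, ketogenesis and PPAR target genes had 2 of 30 tested members higher and none lower, with a median of 0.35. Angptl4, an inhibitor of lipoprotein lipase, was at 19.8 and 29.9 in AIR_MPLA, 46.7 and 27.9 in AIR and 4.07 and 2.09 FPKM in Control (log2 fold 2.68, SE 0.34, adjusted p = 0.021). Acadl, a mitochondrial acyl-CoA dehydrogenase, was at 211 and 207 in AIR_MPLA, 200.3 and 173 in AIR and 84.1 and 63.9 FPKM in Control (log2 fold 1.5, SE 0.19, adjusted p = 0.021). Neither was called between AIR_MPLA and AIR. Pdk4, the kinase that turns off pyruvate dehydrogenase, was at 8.93 and 13.3 in AIR_MPLA, 52.2 and 22.7 in AIR and 2.49 and 1.58 FPKM in Control. It missed the threshold against Control (log2 fold 1.99, adjusted p = 0.0638) and was lower than in AIR (log2 fold -1.58, adjusted p = 0.0284). Over the list 8 of 30 members were higher and 1, Pdk4, lower in AIR_MPLA than in AIR, where 19.5% and 9.90% of all genes were. The list median was 0.47 there, against 0.15 for all genes. In AIR 5 members were higher and 5 lower than in Control, where 8.05% and 18.7% of all genes were, with a median of -0.05. The table's Control replicate 2 gave 14 members higher and 1 lower, against 5.54% and 5.11% of all genes. Neither call was left without any 1 of the AIR_MPLA or AIR libraries, or with totals without defensin and haemoglobin genes.

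Type I interferon response genes had a median of 1.10. Of 38 tested members 33 lay above both Control libraries and none below, against 25.0% and 24.5% of all genes, yet 1 passed. Rtp4, an interferon-induced chaperone of receptors, was at 11.1 and 20.4 in AIR_MPLA, 25.9 and 14.8 in AIR and 2.78 and 3.19 FPKM in Control (log2 fold 2.02, SE 0.33, adjusted p = 0.0436). This call was lost without any 1 of the 6 libraries, and with totals without defensin and haemoglobin genes. Isg15, an interferon-induced ubiquitin-like protein, was at 56.5 and 143 in AIR_MPLA, 174 and 67.2 in AIR and 10.2 and 33.4 FPKM in Control (log2 fold 2.21, adjusted p = 0.192). Its libraries differed widely within AIR_MPLA, within AIR and within Control, and both irradiated groups lay above Control. Irf7, the factor that amplifies interferon genes, was at 54.7 and 126 in AIR_MPLA, 98.2 and 50.5 in AIR and 13.8 and 27.5 FPKM in Control (log2 fold 2.03, adjusted p = 0.114). AIR_MPLA replicate 3 was the higher of the pair for these genes, as AIR replicate 1 was within AIR. In AIR 21 members were higher than in Control, against 8.05% of all genes. Between AIR_MPLA and AIR the list median was -0.12, against 0.15 for all genes. Of the 38, 3 were higher in AIR_MPLA and none lower, where 19.5% of all genes were higher; among them were Lgals3bp (log2 fold 1.14, adjusted p = 0.0309) and Ifitm3 (log2 fold 0.94, adjusted p = 0.0361). By the table's Control replicate 2, 4 members were higher than Control, against 5.54% of all genes.

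Tlr4 itself, the receptor for MPLA, was near 0 in crypts, at 0.00622 and 0.0147 in AIR_MPLA, 0.24 and 0.123 in AIR and 0.0169 and 0.0116 FPKM in Control, and was not tested. None of 23 tested TLR4 coreceptors, adaptors and kinases passed, with a median of -0.05. The proinflammatory cytokine Tnf did not pass either, at 0.678 and 1.02 in AIR_MPLA, 0.632 and 1.21 in AIR and 0.49 and 1.19 FPKM in Control (log2 fold 0.025, adjusted p = 0.966). Of 26 tested NF-kB subunits, regulators and targets Lcn2 was the 1 call. Lcn2 (gene ID 16819, chromosome 2, 32384637 to 32387739), which withholds iron from bacteria, was at 26.7 and 19 in AIR_MPLA, 17.5 and 13.2 in AIR and 1.51 and 3.56 FPKM in Control (log2 fold 2.8, SE 0.31, adjusted p = 0.0174). All irradiated libraries were above both Control libraries, and AIR_MPLA was above AIR with no call between them (log2 fold 0.54, adjusted p = 0.218). Lcn2 also stands in the list of neutrophil markers, where S100a9, a defining transcript of neutrophils, was at 0.173 and 0.101 in AIR_MPLA, 0.755 and 0.437 in AIR and 0 in both Control libraries. Of the list 8 of 12 markers were under 1 FPKM in all libraries, and their part in the Lcn2 value was not tested. The Lcn2 call was lost without AIR_MPLA replicate 1 or either AIR library. With the table's Control replicate 2, 3 of 27 tested NF-kB members were higher and 2 lower, against 5.54% and 5.11% of all genes.

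The p53 targets, induced by DNA damage, had 2 of 35 tested members higher and 1 lower, with a median of 0.25. Phlda3, a repressor of Akt, was at 4.73 and 6.84 in AIR_MPLA, 9.51 and 4.32 in AIR and 0.118 and 0.534 FPKM in Control (log2 fold 2.35, SE 0.35, adjusted p = 0.0331). Ephx1, an epoxide hydrolase, was at 14.4 and 19.3 in AIR_MPLA, 11.7 and 11 in AIR and 6.64 and 7.72 FPKM in Control (log2 fold 1.12, SE 0.18, adjusted p = 0.0416). Sesn1, a sestrin that restrains mTORC1, was at 9.73 and 8.61 in AIR_MPLA, 15.8 and 14.9 in AIR and 22.5 and 21.5 FPKM in Control (log2 fold -1.18, SE 0.14, adjusted p = 0.0185), below AIR as well (log2 fold -0.69, adjusted p = 0.0204). Cdkn1a, the p21 inhibitor of the cell cycle, did not pass, at 99.6 and 129 in AIR_MPLA, 103 and 61.4 in AIR and 36 and 68.4 FPKM in Control (log2 fold 1.18, adjusted p = 0.186). In AIR 14 targets were higher and 4 lower than in Control, where 8.05% and 18.7% of all genes were. In AIR_MPLA 20 of the 35 targets lay above both Control libraries and 2 below, against 25.0% and 24.5% of all genes. Between AIR_MPLA and AIR 8 were lower and 3 higher in AIR_MPLA, where 9.90% and 19.5% of all genes were. Ccng1, a cyclin, was at 24.6 and 20.5 in AIR_MPLA, 65.8 and 69.1 in AIR and 22.7 and 13.9 FPKM in Control (AIR_MPLA over Control log2 fold 0.32, adjusted p = 0.511; AIR_MPLA over AIR log2 fold -1.54, adjusted p = 0.0153). Mdm2, the ubiquitin ligase of p53, was at 4.31 and 3.48 in AIR_MPLA, 8.46 and 6.47 in AIR and 4.06 and 3.51 FPKM in Control (AIR_MPLA over Control log2 fold 0.030, adjusted p = 0.943; AIR_MPLA over AIR log2 fold -0.79, adjusted p = 0.0265). The table's Control replicate 2 gave 10 targets higher, against 5.54% of all genes, Ccng1 among them (log2 fold 0.93, adjusted p = 0.0207). Totals without defensin and haemoglobin genes left the fall of Sesn1 and neither rise. No target was called without either AIR_MPLA library, Phlda3 alone without either AIR library, and Ephx1 and Sesn1 without Control replicate 2.

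Cell cycle genes had no calls. Of 46 tested genes of DNA replication 34 lay below both Control libraries and 1 above, with a median of -0.28. Of 44 of mitosis 37 lay below and 1 above, with a median of -0.40. Of all genes 24.5% lay below and 25.0% above. Mki67, which cycling cells express, was at 12.6 and 9.78 in AIR_MPLA, 14.8 and 15.3 in AIR and 34.6 and 13.6 FPKM in Control (log2 fold -0.91, adjusted p = 0.306). Control replicate 2 was far above the other 5 libraries here, and the table gave 14 FPKM for it. With the table's version 14 replication and 9 mitosis genes were lower, against 5.11% of all genes. In AIR 24 and 17 were lower than in Control, against 18.7% of all genes.

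**Figure D4:**
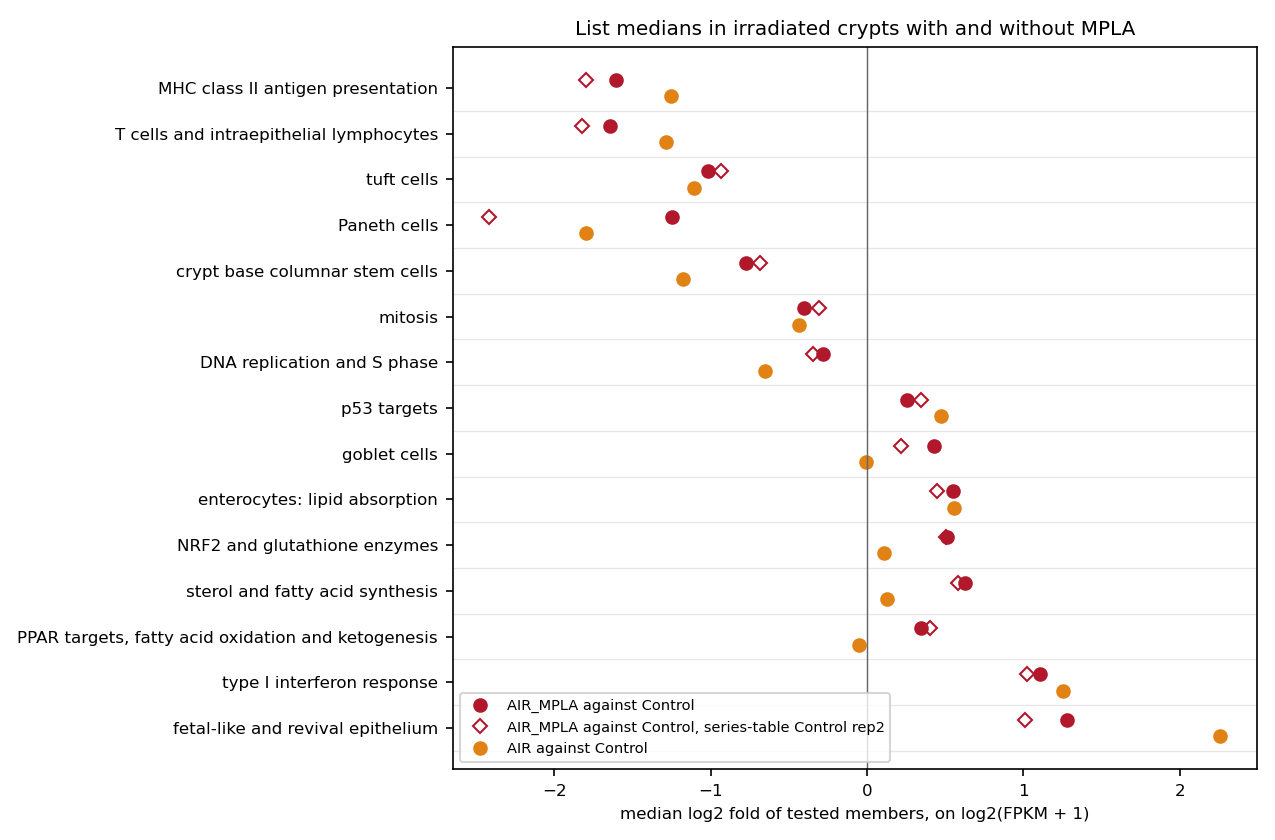
Median log2 fold, on log2(FPKM + 1), of the tested members of the same 15 lists for AIR_MPLA over Control (filled red), for the same with the series-table Control replicate 2 (open diamond), and for AIR over Control (orange), which shares the Control libraries. The stem cell median is -0.77 in AIR_MPLA and -1.17 in AIR, and that of sterol and fatty acid synthesis 0.63 and 0.13.

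Few markers of goblet cells, enterocytes or enteroendocrine cells passed. No goblet cell marker of 23 passed, and 16 lay above both Control libraries and 1 below, against 25.0% and 24.5% of all genes. Muc2, the gel mucin, was at 58.8 and 60.2 in AIR_MPLA, 29.5 and 19.1 in AIR and 43.2 and 35.6 FPKM in Control (log2 fold 0.59, adjusted p = 0.262; AIR_MPLA over AIR log2 fold 1.29, adjusted p = 0.0166). None of 22 lipid absorption genes, 19 nutrient transporters or 18 enteroendocrine markers passed. With the table's Control replicate 2, 5.54% of all genes were higher and 5.11% lower. Among lipid absorption genes 5 were then higher and 1 lower. A count of 1 nutrient transporter and 1 enteroendocrine marker higher, and of 1 goblet cell marker lower, was near those shares. Of 22 brush border enzymes the lactase gene Lct was lower, at 6.12 and 10.8 in AIR_MPLA, 2.38 and 3.36 in AIR and 27.2 and 36.4 FPKM in Control (log2 fold -1.83, SE 0.28, adjusted p = 0.0365). AIR_MPLA was above AIR (log2 fold 1.25, adjusted p = 0.0233). Among 29 ion and fluid transport genes Guca2b was higher. Kcne3, a potassium channel subunit of chloride secretion, was lower, at 14.9 and 12.4 in AIR_MPLA and 29.1 and 32.4 FPKM in Control (log2 fold -1.12, adjusted p = 0.0421). In the ion and fluid list the table's version gave 8 higher and 3 lower, and among brush border enzymes 2 higher and 1 lower. Of 26 genes of cell death the gasdermins Gsdmc2 and Gsdmc4, close paralogs, were lower. Gsdmc4 was at 0.141 and 0.103 in AIR_MPLA, 0.0414 and 0.0652 in AIR and 2.78 and 7.87 FPKM in Control (log2 fold -2.37, adjusted p = 0.0365). Gsdmc2 was at 0.0403 and 0.0465 in AIR_MPLA, 0.13 and 0.017 in AIR and 1.99 and 3.14 FPKM in Control (log2 fold -1.75, adjusted p = 0.0172). The calls of Kcne3, Gsdmc2 and Gsdmc4 were lost without any 1 of the AIR_MPLA or AIR libraries, and that of Lct without AIR_MPLA replicate 1, either AIR library or Control replicate 2.

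Cytochromes and related enzymes had 1 of 40 tested members higher and 2 lower. Cyp2j6 was at 20.5 and 22.1 in AIR_MPLA, 20.3 and 24.8 in AIR and 10.5 and 8.43 FPKM in Control (log2 fold 1.1, SE 0.17, adjusted p = 0.04). Cyp3a25 was at 10.6 and 13.3 in AIR_MPLA, 35.9 and 41.5 in AIR and 41.3 and 31.7 FPKM in Control (log2 fold -1.53, SE 0.19, adjusted p = 0.021). It was low in AIR_MPLA alone: AIR did not pass against Control (log2 fold 0.091, adjusted p = 0.746), and AIR_MPLA was below AIR (log2 fold -1.62, adjusted p = 0.0153). Cyp2c66 was at 2.33 and 6.18 in AIR_MPLA, 3.72 and 4.6 in AIR and 34.4 and 24.1 FPKM in Control (log2 fold -2.61, SE 0.36, adjusted p = 0.0272). The table gave Control replicate 2 13 FPKM, with which the gene missed the threshold (log2 fold -1.94, adjusted p = 0.0553). The calls of Cyp2j6 and Cyp3a25 were lost without any 1 of the AIR_MPLA or AIR libraries, and that of Cyp2c66 without AIR_MPLA replicate 1, either AIR library or Control replicate 2. With the table's Control replicate 2 the counts of the list were 8 higher and 4 lower, against 5.54% and 5.11% of all genes. They were 0 and 3 with totals without defensin and haemoglobin genes. All 3 genes have close paralogs.

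In all, 19 of the 49 lists held a call and 30 held none. Without a call were the interferon gamma induced GTPases, the MHC class I genes (median -0.13 over 21 tested), DNA repair, the Notch, BMP, EGF receptor and YAP pathways, ribosomal proteins and the respiratory chain. Outside the lists 103 genes were called. Of the 16 largest changes that the naming rule took, 4 belong to no list. Ddah1 (gene ID 69219, chromosome 3, 145758692 to 145894277), which breaks down methylarginine inhibitors of nitric oxide synthesis, was at 9.64 and 9.58 in AIR_MPLA, 7.76 and 4.62 in AIR and 0.494 and 0.724 FPKM in Control (log2 fold 2.73, SE 0.23, adjusted p = 0.0123). This call held without any 1 library. Cd52, a leukocyte surface glycoprotein, was at 0.414 and 0.935 in AIR_MPLA, 1.85 and 2.53 in AIR and 6.64 and 12 FPKM in Control (log2 fold -2.59, SE 0.29, adjusted p = 0.0174), and moved with the lymphocyte markers. Alb, the serum albumin of liver, was at 12.8 and 14.2 in AIR_MPLA, 3.3 and 13.7 in AIR and 0.107 and 0.163 FPKM in Control (log2 fold 3.67, SE 0.50, adjusted p = 0.0257). Mup7, a liver-made urinary protein with near-identical copies, was at 7.46 and 7.85 FPKM in AIR_MPLA and 1.6 and 7.15 FPKM in AIR and was listed at 0 in both Control libraries (limma adjusted p = 0.0348). Over 26 transcripts of liver-made plasma proteins, a list made after these values were seen, the sums were 65.3 and 73.5 FPKM in AIR_MPLA, 22.3 and 66.9 FPKM in AIR, and 8.20 and 8.07 FPKM in Control. Of the list 15 of the 26 were at 0 in both Control libraries. In both AIR_MPLA libraries 26 of 26 were above Control, against 25.0% of all tested genes. The part of liver RNA in the Alb and Mup7 values was not tested, and both calls were lost without any 1 of the AIR_MPLA or Control libraries.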

How the data were processed

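RNA of 6 intestinal crypt samples had been sequenced, 2 per group; groups and replicate numbers came from the titles. The labels' protocols name flash freezing, Trizol extraction and the Illumina TruSeq RNA kit. Tools named by the submitters' processing notes are Trimmomatic, HTSeq, Cufflinks and HISAT2, and the build is GRCm38.p6. Their versions, order and strand setting are not stated in these sources, so overlapping and antisense genes cannot be told apart. The deposited values are FPKM, also in the columns headed Counts: 5 of the 6 files equal the authors' series table in all 21878 values within 1e-06. FPKM hides depth, so no counting interval is given.

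Genes of at least 1 FPKM in at least 2 of 6 libraries were kept. A linear model with group means for the 6 libraries, leaving 3 residual degrees of freedom, was fitted to log2(FPKM + 1) in limma 3.58.1 (R 4.3.3). Empirical Bayes used a trend and robust estimation, and p-values were adjusted by Benjamini-Hochberg at 0.05. The steps were tested on simulated data. Coordinates came from a RefSeq gene table of GRCm38.p6 (21727 genes matched), and 27 symbols turned into dates were restored by gene ID. Tables used Python 3.11.15, pandas 2.3.3 and matplotlib 3.10.9.

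The 49 lists (1283 entries, 1265 in the files), their members, the naming rule and the settings were chosen with earlier results of these data known. A further 2 lists, the motifs, the printed promoters and the drawn genes were chosen after values were seen. The rule named 10 genes in every case, the 8 largest rises and falls called with both versions of Control replicate 2 (apart in all libraries, at least 5 FPKM in the higher group, no predicted genes), and per list with a call up to 3 genes in its main direction and 1 in the other, 52 in all. Genes named beyond these 52 were chosen after their values were seen, and some named genes are not reported here. Other settings were 3 scalings, a pseudocount of 0.1, no filter and one of 5 FPKM, the table's Control replicate 2, a correction for GC content (known for 99.4% of tested genes, lowess span 0.3), both together, the 4 compared libraries alone, a replicate block, and each library left out, where the lone remaining sample of a group is assumed to vary as other groups do.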

Additional observations from a re-analysis of the deposited data

How the results depend on the processing

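All 154 called genes kept their direction with each of the 3 scalings, with GC correction and with a replicate block. So did 151 of 151 tested with the table's Control replicate 2. The filters, the pseudocount, the 4 compared libraries alone and leaving out 1 library could not turn a direction. In each of the 154 both AIR_MPLA libraries lay above, or both below, both Control libraries. The counts of calls moved far more. Median-ratio scaling gave 71 genes higher and 77 lower, upper-quartile scaling 55 and 92, and a pseudocount of 0.1 gave 86 and 75, against 67 and 87. Totals without defensin and haemoglobin genes gave 26 higher and 61 lower. No filter gave 13 higher and 60 lower over 16529 genes, and a filter of 5 FPKM 33 and 24 over 7355. The table's Control replicate 2 gave 576 and 532, GC correction 154 and 162, and both together 694 and 591. The 4 compared libraries alone gave 25 and 18. Leaving out 1 library gave 7 to 582 higher and 6 to 1063 lower. The lowest counts came without AIR_MPLA replicate 1 (7 and 6) and replicate 3 (7 and 22), the highest without Control replicate 3 (582 and 1063), and without Control replicate 2 they were 94 and 144.

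A replicate block gave 9 higher and 19 lower, of which 16 were among the 154. AIR_MPLA and Control share the number 3 alone. The deviations of their replicates 3 had r = 0.493 across genes, and those of same-numbered AIR_MPLA and AIR libraries had r = -0.330. With 2 libraries per group the deviations within a group mirror each other, so these values cannot tell whether the numbers pair the samples.

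Of 43 called named genes 42 stayed called with the table's Control replicate 2 (Cyp2c66 did not), 43 with GC correction, 36 without defensin and haemoglobin genes in the totals, 28 with a filter of 5 FPKM (34 tested), 15 with no filter, 18 in the 4 libraries alone and 11 with the block. Without single libraries 10 to 39 stayed called, and 7 stayed called each time, among them Ddah1, Cd74, H2-Ab1, H2-Eb1, Slc14a1 and Gsta3. Tnf, not called, was the 1 named gene whose sign turned, with log2 folds of -0.0055 with upper-quartile scaling, -0.021 with totals without defensin and haemoglobin genes, -0.31 with the table's Control replicate 2, -0.063 with GC correction, -0.29 with both, -0.078 with the replicate block, -0.11 without AIR_MPLA replicate 3, -0.25 without Control replicate 2 against 0.025. Without single libraries it lay between -0.25 and 0.30.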

Other observations

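The genes below were picked from the 103 calls outside the lists after their values were seen, and are given as values with no test beyond the limma call. Some stood higher in AIR_MPLA alone. Hsd11b2, which inactivates corticosterone, was at 21.4 and 24.1 in AIR_MPLA, 6.12 and 8.07 in AIR and 9.01 and 7.06 FPKM in Control (log2 fold 1.4, adjusted p = 0.025). Vat1, a membrane protein of vesicles, was at 111 and 123 in AIR_MPLA, 62.2 and 56.2 in AIR and 52.9 and 61.5 FPKM in Control (log2 fold 1.02, adjusted p = 0.04). Ethe1, a mitochondrial enzyme of sulfide oxidation, was at 26.5 and 34.1 in AIR_MPLA, 15.2 and 15.2 in AIR and 12.8 and 14.9 FPKM in Control (log2 fold 1.07, adjusted p = 0.0421). In each the AIR libraries lay near Control and below both AIR_MPLA libraries. Others stood between AIR and Control. Slc25a4, the mitochondrial ADP/ATP carrier, was at 45.8 and 39.3 in AIR_MPLA, 87.1 and 78.7 in AIR and 12.2 and 8.06 FPKM in Control (log2 fold 1.99, adjusted p = 0.0157). Muc4, a membrane mucin, was at 2.52 and 1.83 in AIR_MPLA, 0.711 and 0.666 in AIR and 7.67 and 5.77 FPKM in Control (log2 fold -1.28, adjusted p = 0.0361).

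Low in both irradiated groups was Sfrp5, a secreted Wnt antagonist, at 0.258 and 0.141 in AIR_MPLA, 0 and 0.0342 in AIR and 3.86 and 6.17 FPKM in Control (log2 fold -2.3, adjusted p = 0.0154). Mcpt1, a protease of mucosal mast cells, was likewise low, at 0 and 0.101 in AIR_MPLA, 0.323 and 0 in AIR and 1.98 and 5.59 FPKM in Control (log2 fold -2.08, adjusted p = 0.0476). Fut2, the fucosyltransferase that caps epithelial glycans, was high in both, at 6.9 and 6.11 in AIR_MPLA, 6.66 and 3.58 in AIR and 0.541 and 1.58 FPKM in Control (log2 fold 1.91, adjusted p = 0.0443). Dbp, an output gene of the circadian clock, was at 3.02 and 2.68 in AIR_MPLA, 1.77 and 2.25 in AIR and 11.2 and 15.7 FPKM in Control (log2 fold -1.89, adjusted p = 0.0157). Over 15 clock genes, listed after these values were seen, the sums were 64.8 and 67.6 FPKM in AIR_MPLA, 80.8 and 77.6 FPKM in AIR, and 108 and 96.3 FPKM in Control (86.7 FPKM in the table's version of replicate 2). In AIR_MPLA 8 of 15 lay below and 4 above both Control libraries, against 24.5% and 25.0% of all tested genes. The 4 above were near that share. The labels give no time of day.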
